A study of Mus musculus with 4 samples.

Results

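The genes followed here make, break down and regulate polyamines; there are 10, measured in mouse quadriceps, the large thigh muscle, with and without the vitamin D receptor (gene Vdr). They were chosen by symbol as a known pathway, with earlier results of these data known. Each of the 10 symbols matched 1 of the 55573 gene IDs in the count files, and all 10 were among the 13076 genes abundant enough to test. The data are read counts per gene from 4 RNA-seq libraries of mice aged 7 weeks, 2 from the knockout strain B6.129S4-Vdrtm1Mbd/J (vdr-/-, called KO) and 2 from wild-type C57BL/6J mice (WT). The knockout is germline, so every tissue of those mice lacks the receptor, and all mice had chow and water without restriction. Neither the sex of the mice nor whether a genotype's libraries are from different mice is given in the labels. The p-values therefore reflect only how these libraries vary, and that variation may be technical.

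Polyamines are small, positively charged molecules that bind nucleic acids and that growing and working cells need. Ornithine decarboxylase (Odc1) turns ornithine into putrescine, S-adenosylmethionine decarboxylase (Amd1) supplies aminopropyl groups, and spermidine synthase (Srm) and spermine synthase (Sms) add these groups to give spermidine and spermine. Spermine oxidase (Smox) turns spermine back into spermidine, while the acetyltransferase Sat1 and the oxidase Paox form a second route of breakdown. The antizymes Oaz1 and Oaz2 bind ornithine decarboxylase and send it to the proteasome, and the antizyme inhibitor Azin1 binds antizyme in its place. In mouse muscle Smox is known to fall with wasting, and Odc1 and Amd1 are known to respond to androgens.

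Antizyme messages carry the pathway's own polyamine sensor, and the stretch that does this is shown for Oaz1, whose level per exon length was the highest of the 10 genes, and for its relative Oaz2. Reading stops at an in-frame TGA unless polyamines make the ribosome shift by a base. The capitals mark the codon before the shift and the TGA that follows it, in GENCODE transcripts on GRCm38, plus strand. The Oaz1 stretch lies at chr10:80828280-80828309 and the Oaz2 stretch at chr9:65686257-65686286.
Oaz1: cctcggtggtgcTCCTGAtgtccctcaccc
Oaz2: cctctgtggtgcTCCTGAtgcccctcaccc
The stretches were identical at 28 of 30 bases and differed at 2. Gene counts cannot show whether the shift took place.

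Sms was the only member that passed the test of KO against WT, and the 250 bases before its RefSeq starts are shown for that reason (GRCm38.p6, minus strand, written 5′ to 3′). RefSeq has 2 starts for Sms, 919 bases apart. Capitals mark an E-box, CACGTG, the letters that Myc with its partner Max can bind.
Sms, outer start, chrX:157492288-157492537: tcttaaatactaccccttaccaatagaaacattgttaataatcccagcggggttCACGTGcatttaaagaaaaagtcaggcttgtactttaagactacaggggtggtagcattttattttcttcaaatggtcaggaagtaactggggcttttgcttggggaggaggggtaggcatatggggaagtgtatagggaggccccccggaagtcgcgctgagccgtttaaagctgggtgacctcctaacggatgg
Sms, inner start, chrX:157491369-157491618: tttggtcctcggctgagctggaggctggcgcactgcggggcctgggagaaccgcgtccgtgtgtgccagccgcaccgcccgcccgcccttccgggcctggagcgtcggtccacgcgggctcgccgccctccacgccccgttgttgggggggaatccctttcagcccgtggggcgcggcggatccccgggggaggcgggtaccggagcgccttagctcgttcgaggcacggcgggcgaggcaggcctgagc
RefSeq promoters matched 8 of the 10 members, with 10 starts in all. Searched on both strands, the E-box letters were in 1 of these 10 windows and in 6.02% of the 32851 promoter windows of all genes. The outer Sms window held 47.2% G and C bases and the inner window 75.2%. The DR3 vitamin D response element, the motif of the vitamin D receptor, was in none of the 10 windows and in 0.0396% of all windows. No match says only that these letters are not in these 250 bases.

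Total counts were 21336982 and 11206474 in KO replicates 1 and 2 and 10789025 and 13031553 in WT replicates 1 and 2. In KO libraries the 10 muscle markers checked summed to 93610 and 95460 CPM (read counts scaled to a common library size). In WT libraries they summed to 108800 and 100900 CPM. None was called by edgeR, with 1 at an unadjusted p below 0.05 (14% of all tested genes), while DESeq2 called 1 lower. Vdr itself had 5 and 1 counts in KO libraries and 5 and 0 counts in WT libraries, so it does not check the labels. The genotypes differed in sex-linked genes. Xist, a non-coding RNA made from the silenced X chromosome of females, had 0 and 3 counts in KO libraries and 1929 and 2778 counts in WT libraries. Counts of 4 genes of the Y chromosome (Uty, Kdm5d, Ddx3y and Eif2s3y) summed to 2965 and 1383 counts in KO libraries and to 95 and 1 counts in WT libraries. WT replicate 1 thus stood apart from its label group, with 6.96% of the mean Y-linked level of KO. Effects of genotype and of sex cannot be told apart in any comparison below. Each member was also fitted without each library in turn, and a lost call or a change of sign is given with the gene.

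By level per exon length, the antizyme Oaz1 was highest and the breakdown oxidase Paox lowest of the 10 genes. In CPM per kilobase of exon (all annotated exons of a gene merged), Oaz1 stood at 39.6 to 47.8 over the 4 libraries, the 96.4th percentile of the genes tested. Oaz2 stood at 21.3 to 27.1, Amd1 at 15.2 to 26.7 and Smox at 10.0 to 21.5. These were followed by Odc1 (7.62 to 10.4), Sms (4.97 to 10.2), Sat1 (5.40 to 6.58) and Azin1 (4.83 to 6.42), in order of their means. From Oaz2 to Azin1 the range of each gene overlapped that of the next. Within each library Amd1 still stood above Smox, and Smox above Odc1. The order of the other neighbours among these 7 genes changed between libraries and was not settled. Srm lay apart at 3.002 to 4.05 and Paox at 0.985 to 1.501, the 35th percentile. Over the length of the principal transcript alone, Oaz1 still led with a mean of 107 CPM per kilobase and Srm (4.25) and Paox (1.31) were still lowest. Smox (26.2) then ranked above Amd1 (24.3), and Sat1 (14.1) above Odc1 (13.4) and Sms (12.2).

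**Figure D1:**
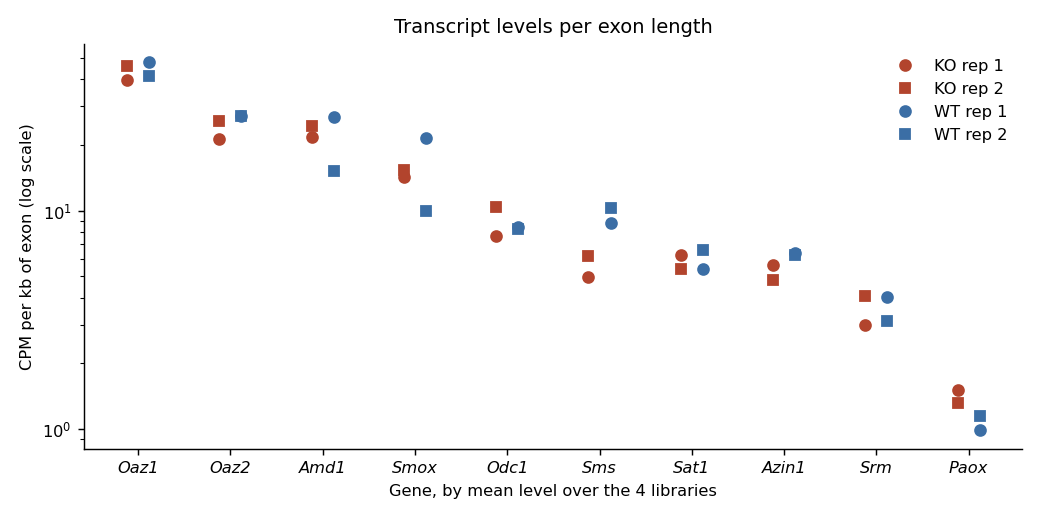
Levels of the 10 genes in CPM per kilobase of exon (log axis), 1 point per library, with KO left of WT for each gene and genes in order of their mean. Oaz1 is highest at 39.6 to 47.8 and Paox lowest at 0.985 to 1.501, and the WT points of Amd1 and Smox lie far apart.

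Some of these levels rest on sequence shared with other genes. Of the 50-base windows of a coding transcript, 87.6% of those of Amd1 also occur in another gene, among them its copy Amd2 and processed pseudogenes. The share was 52.2% for Oaz1, 42.2% for Odc1, 28.9% for Paox and 28.7% for Sms, and at most 12% for the other 5 members, with none for Smox. The sources used here do not say how reads that map to several places were counted. The levels of Amd1, Oaz1 and Odc1 in particular are therefore uncertain. Counts of the copies do not show whether reads from shared sequence were left out of both genes. The copies that share at least 100 windows with Amd1 held 24 and 9 counts in KO libraries and 7 and 3 counts in WT libraries, against 1617 and 1016 counts in KO and 999 and 688 counts in WT for Amd1 itself. The share was larger for Odc1, whose copies held 65 and 25 counts in KO libraries and 44 and 45 counts in WT libraries, against 546 and 416 counts in KO and 303 and 359 counts in WT for Odc1 itself. For Oaz1, its copy held 13 and 7 counts in KO libraries and 9 and 10 counts in WT libraries. For Sms, the copies held 6 and 7 counts in KO libraries and 7 and 10 counts in WT libraries. On the opposite strand, Gm49077 covers 5.72% of the exon bases of Azin1, and Echs1 covers 2.89% of those of Paox.

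**Figure D2:**
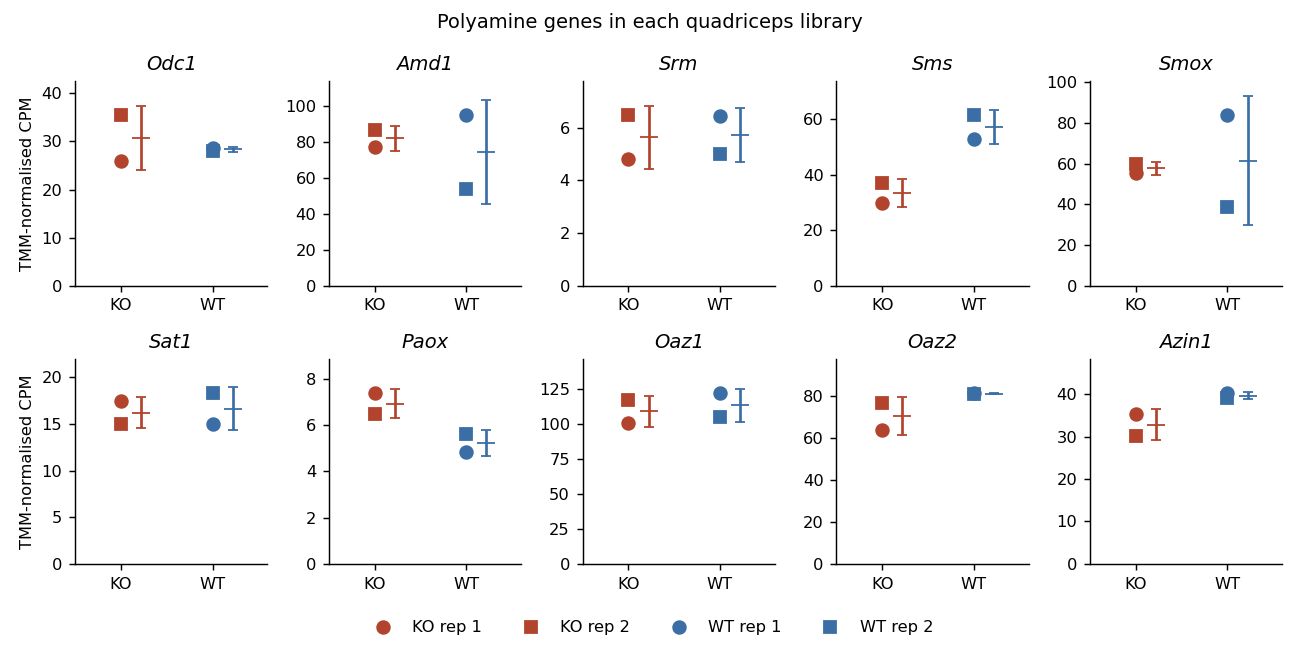
TMM-normalised CPM of the 10 polyamine genes in each library, with KO left of WT (points), and the mean ± SD of each genotype beside the points (n = 2 each); every axis starts at 0. Sms lies at 29.9 and 37.1 CPM in KO and at 52.8 and 61.5 CPM in WT, while Smox and Amd1 spread widely in WT.

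Spermine synthase was called lower in the KO libraries, and no other member passed the test. Genotype and sex cannot be told apart in this difference. Expression was compared between KO and WT with edgeR's quasi-likelihood test across all 13076 genes, and a gene is called where its Benjamini-Hochberg adjusted p is below 0.05. Of the 10 members 1 was called lower and 0 higher, where 0.413% of all tested genes were called lower and 1.61% higher. At an unadjusted p below 0.05 the count was also 1 of 10, against 14% of all tested genes, and DESeq2 likewise called 1 lower and 0 higher. The libraries of the 2 genotypes did not overlap for 4 of the 10 members, against 44.7% of all tested genes, so that share was near the background. Of these 4, 3 were lower in KO (21.7% of all tested genes) and 1 was higher (23%). The median log2 fold change, KO over WT, was -0.05 over the members and -0.001 over all tested genes.

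Among the genes of synthesis, Sms (ENSMUSG00000071708, chromosome X, 157443855 to 157492287 on GRCm38) had 628 and 435 counts in KO libraries and 557 and 788 counts in WT libraries. After TMM scaling, which corrects library sizes for composition, these stood for 29.9 and 37.1 CPM in KO and 52.8 and 61.5 CPM in WT. Both KO libraries lay below both WT libraries. The means were 33.5 ± 5.12 CPM in KO and 57.1 ± 6.15 CPM in WT (SD, n = 2 each), a log2 fold change of -0.78 ± 0.15 (SE, edgeR adjusted p = 0.0257), or 0.584 times the WT level with a 95% interval of 0.466 to 0.732. The call was lost without KO replicate 1 (log2 fold change -0.63, edgeR adjusted p = 0.129) and without WT replicate 2 (-0.66, edgeR adjusted p = 0.0592). It held without WT replicate 1 (-0.88, edgeR adjusted p = 0.00962), the library with Y-linked reads, and without KO replicate 2 (-0.93, edgeR adjusted p = 0.0239).

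Sms lies on the X chromosome, and Xist differed between the genotypes, so its difference was set beside other X-linked genes. Of 421 tested X-linked genes, 5 were called lower (1.19%), and these were Xist, Kdm6a, Eif2s3x, Phka1 and Sms, named here after their values were seen; 8 were called higher. All 5 were among the 174 X-linked genes with a mean of at least 10 CPM (2.87%). Among all 12650 tested autosomal genes, with no such cut on level, 0.387% were called lower, and 203 genes were called higher. That share is the counterpart of the 1.19%, not of the 2.87%. The median log2 fold change of X-linked genes was 0.001. Kdm6a, a histone demethylase, and Eif2s3x, a subunit of a translation initiation factor, belong to a list of 7 genes known to escape X inactivation. The summed level of that list was 219 and 210 CPM in KO and 328 and 300 CPM in WT. All 7 had a negative log2 fold change, with 2 called lower by edgeR and 3 by DESeq2 and a median of -0.36. Kdm6a had a log2 fold change of -0.98 ± 0.14 and Eif2s3x one of -0.65 ± 0.12 (SE). Eif2s3x was not called without KO replicate 1, KO replicate 2 or WT replicate 2 (adjusted p from 0.0747 to 0.0836 by edgeR).

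The genes next to Sms were not called by edgeR or DESeq2. Within 2 Mb of its start 6 other genes were tested, 5 with a negative and 1 with a positive log2 fold change. Smpx, a small protein of striated muscle, had 105.8 and 105.5 CPM in KO libraries and 117 and 114 CPM in WT libraries (log2 fold change -0.13 ± 0.12, SE). Rps6ka3, a ribosomal S6 kinase, had 37.3 and 40.8 CPM in KO libraries and 48.9 and 57.5 CPM in WT libraries, with a log2 fold change of -0.45 ± 0.13 (SE, edgeR adjusted p = 0.142). Mbtps2, a protease of the secretory pathway, stood at -0.37 ± 0.21. The other tested neighbours ranged from -0.31 to 0.70, with 1 near 0 at -0.03 ± 0.12 (SE). Whether Sms differs from these neighbours was not tested.

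**Figure D3:**
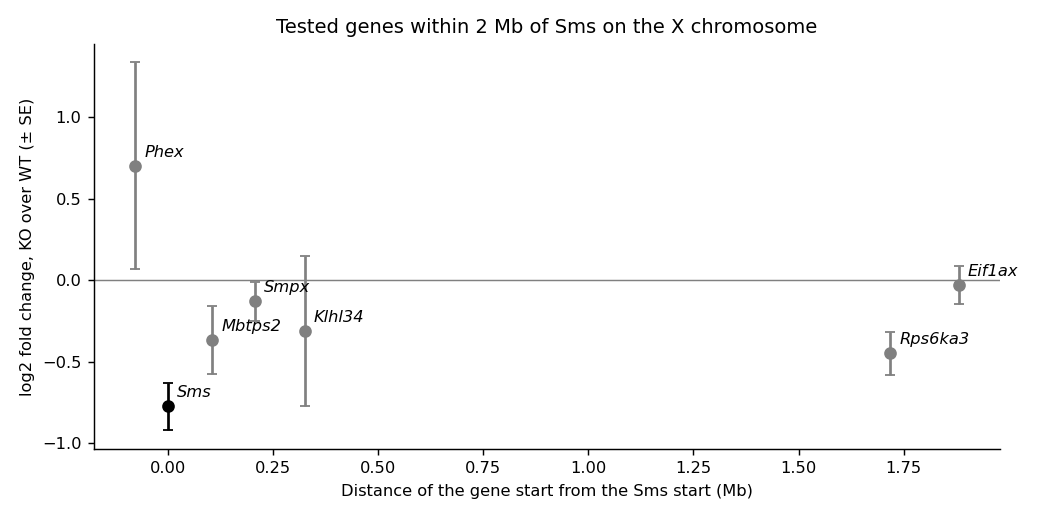
Log2 fold change, KO over WT, of the tested genes within 2 Mb of Sms on the X chromosome, against the distance of their start from the Sms start in Mb; bars are SE. Sms, at -0.78, lies lowest, and the other 6 genes range from -0.45 to 0.70.

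Fat-cell markers were higher in the same KO libraries. Of the 14 checked, 10 were called higher and 0 lower, where 1.61% of all tested genes were called higher and 0.413% lower. Their summed level was 6931 and 6192 CPM in KO libraries and 2405 and 2643 CPM in WT libraries. No marker had 0 counts in any library. Of 8 red blood cell markers 7 matched a gene ID and 5 were tested, 2 of which were called higher (1.61% of all tested genes). Their summed level was 551 and 390 CPM in KO libraries and 243 and 266 CPM in WT libraries, and Slc4a1 had 0 counts in WT replicate 1. Of 10 macrophage markers edgeR and DESeq2 called none, with 3 at an unadjusted p below 0.05. All 10 had a positive log2 fold change, as had 6522 of the 13076 tested genes. Their sums were 386 and 415.5 CPM in KO libraries and 328 and 381 CPM in WT libraries. Of 7 endothelial and 6 fibroblast markers neither tool called any, with 2 of each list at an unadjusted p below 0.05. Among all tested genes 14% had an unadjusted p below 0.05 by edgeR. The part of these cells in the Sms value was not tested. In bulk tissue, fewer cells of a type and less RNA per cell cannot be told apart.

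Odc1, which catalyses the first step of the pathway, did not pass the test. Odc1 (chromosome 12, 17544794 to 17551505) had 25.9 and 35.5 CPM in KO libraries and 28.7 and 28.01 CPM in WT libraries. The WT libraries lay between the KO libraries, which stood further apart than those of most genes. The log2 fold change was 0.11 ± 0.16 (SE), with a 95% interval of -0.25 to 0.47 (edgeR adjusted p = 0.839), and it turned negative without KO replicate 2 (-0.13). The interval ran from 0.841 to 1.38 times the WT level.

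Amd1 (chromosome 10, 40287458 to 40302186) had 76.9 and 86.6 CPM in KO libraries and 94.7 and 53.7 CPM in WT libraries. Both KO libraries lay within the gap between the WT libraries. Its log2 fold change was 0.14 ± 0.27 (SE, 95% interval -0.52 to 0.81, edgeR adjusted p = 0.883). Leaving out WT replicate 1 gave 0.61 and leaving out WT replicate 2 gave -0.22, so the direction rested on which WT library was kept.

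Srm (chromosome 4, 148591503 to 148594993), which makes spermidine and so the substrate of spermine synthase, was the lowest but Paox of the 10 genes per exon length, at percentile 66.4 of all tested genes. It had 4.801 and 6.48 CPM in KO libraries and 6.44 and 4.99 CPM in WT libraries, and the groups overlapped. The log2 fold change was -0.04 ± 0.24 (SE, edgeR adjusted p = 0.971), with an interval of -0.57 to 0.50, and it was positive without KO replicate 1 (0.18) or WT replicate 1 (0.15). In each library Sms stood above Srm per kilobase of exon, by 1.65 and 1.52 times in KO and by 2.18 and 3.28 times in WT.

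Among the genes of breakdown, Smox varied most. Smox (chromosome 2, 131491496 to 131525922) had 55.4 and 59.9 CPM in KO libraries and 83.9 and 38.9 CPM in WT libraries. The KO libraries were close together and lay between the WT libraries. Its means were 57.7 ± 3.20 CPM in KO and 61.4 ± 31.8 CPM in WT (SD, n = 2 each). The log2 fold change was -0.09 ± 0.44 (SE, edgeR adjusted p = 0.962), and its 95% interval ran from 0.373 to 2.37 times the WT level. The data were thus compatible with a difference of Smox of any size within that interval. Leaving out WT replicate 1 gave a log2 fold change of 0.57 and leaving out WT replicate 2 gave -0.54, and neither was called (edgeR adjusted p = 0.140 and 0.109).

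The spread of Smox and Amd1 between the WT libraries was unusual among genes. WT replicate 1 held 2.15 times the Smox level and 1.76 times the Amd1 level of WT replicate 2. Among 6289 tested genes with a mean of at least 10 CPM, this put Smox at percentile 99.3 and Amd1 at percentile 99 of the absolute log2 ratio within WT, where the median was 0.14. Within KO, Smox lay at percentile 38.2 with a ratio of 0.925 and Amd1 at percentile 54.7 with a ratio of 0.887. The other 6 members in this set reached at most percentile 81 within WT. Within KO, Odc1 was the most spread of these 8 members at percentile 92.2, with KO replicate 1 at 0.732 times KO replicate 2. Both Smox and Amd1 were higher in the WT library that also held Y-linked reads. The part of the source of that library in these values was not tested.

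**Figure D4:**
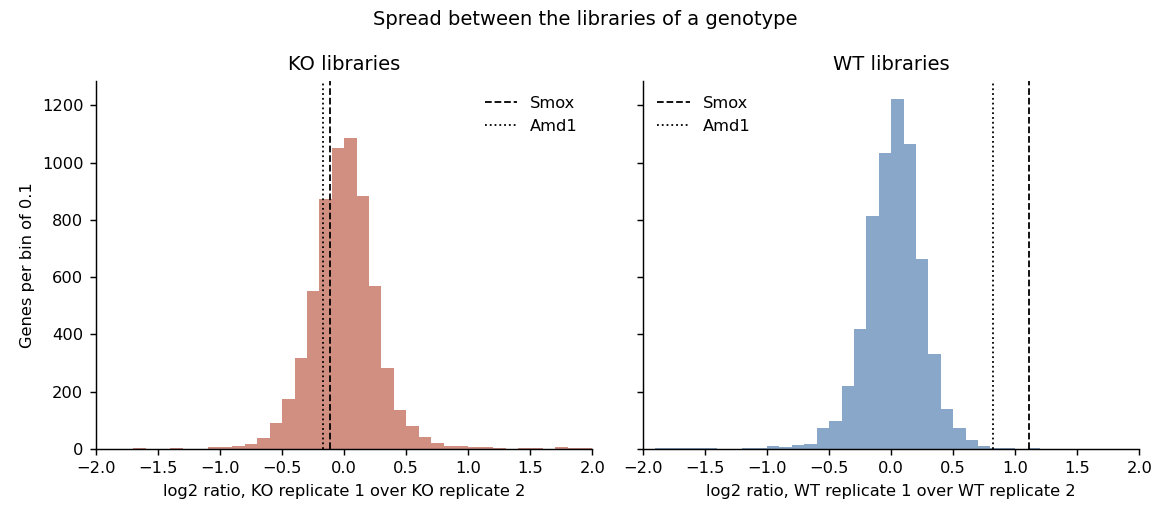
Histograms of the log2 ratio between the 2 libraries of KO (left) and of WT (right) for 6289 genes with a mean of at least 10 CPM, in bins of 0.1, shown from -2 to 2, beyond which a few genes lie; dashed and dotted lines mark Smox and Amd1. Both genes lie inside the bulk of the KO histogram and beyond the bulk of the WT histogram, at 1.11 and 0.82.

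Sat1 (chromosome X, 155213132 to 155216449), the acetyltransferase that starts the second route of breakdown, is also X-linked. It had 17.4 and 15.01 CPM in KO libraries and 14.97 and 18.3 CPM in WT libraries. The groups overlapped, and the log2 fold change was -0.03 ± 0.16 (SE, 95% interval -0.39 to 0.32, edgeR adjusted p = 0.958). Its sign turned without KO replicate 2 (0.07) or WT replicate 2 (0.12). None of the 5 other tested genes within 2 Mb was called by edgeR or DESeq2.

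Paox (chromosome 7, 140115799 to 140137224), which oxidises the acetylated products of Sat1, had 7.37 and 6.48 CPM in KO libraries and 4.83 and 5.62 CPM in WT libraries. Both KO libraries lay above both WT libraries, but the gene was not called (log2 fold change 0.41 ± 0.21, SE, edgeR adjusted p = 0.431). The interval ran from 0.966 to 1.82 times the WT level. The estimate stayed positive without each library in turn, from 0.30 to 0.53.

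Among the regulators, the antizymes did not pass the test. Oaz1 (chromosome 10, 80826656 to 80829290) had 101 and 117 CPM in KO libraries and 122 and 105 CPM in WT libraries, with overlap and a log2 fold change of -0.06 ± 0.13 (SE, edgeR adjusted p = 0.901). Its interval ran from 0.780 to 1.18 times the WT level. The estimate was positive without KO replicate 1 (0.04) or WT replicate 1 (0.05). Oaz2 (chromosome 9, 65668001 to 65690300) had 63.8 and 76.6 CPM in KO libraries and 81.1 and 80.8 CPM in WT libraries. Its KO libraries lay below its WT libraries without a call (log2 fold change -0.21 ± 0.13, SE, edgeR adjusted p = 0.534). The estimate was -0.085 without KO replicate 1 and -0.34 without KO replicate 2.

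Azin1 (chromosome 15, 38487427 to 38519266), the antizyme inhibitor, had 35.3 and 30.2 CPM in KO libraries and 40.2 and 39.1 CPM in WT libraries. Both KO libraries were lower, and the gene missed the threshold (log2 fold change -0.27 ± 0.13, SE, unadjusted p = 0.0654, edgeR adjusted p = 0.407). Its interval ran from 0.676 to 1.01 times the WT level, and the estimate was negative without each library in turn, from -0.40 without KO replicate 1 to -0.16 without KO replicate 2. Per kilobase of exon, Oaz1 stood at 5.20 and 4.39 times Odc1 in KO libraries and at 5.66 and 5.01 times in WT libraries. Azin1 stood at 0.741 and 0.463 times Odc1 in KO libraries and at 0.762 and 0.760 times in WT libraries.

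**Figure D5:**
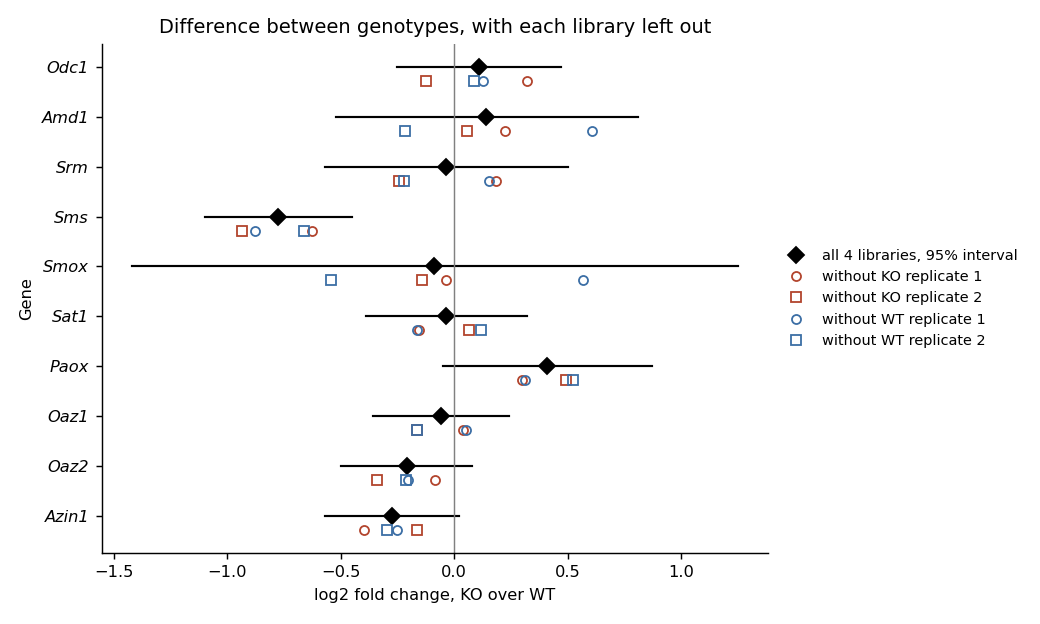
Log2 fold change, KO over WT, of the 10 genes with its 95% interval (black) and, below each, the estimate without each library in turn (open symbols). Sms stays between -0.93 and -0.63, Oaz2, Azin1 and Paox keep their sign, and the other 6 genes lie on both sides of 0.

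Genes that supply, move or use polyamines held none called by edgeR or DESeq2. Of 49 such genes in 5 lists, 34 were tested, 13 had a positive and 20 a negative log2 fold change (Eif5a stood at 0.00), and the median was -0.03, where 2.03% of all tested genes were called in either direction. At an unadjusted p below 0.05 the count was 7, where 14% of all tested genes passed. For the arginine and ornithine supply 8 of 12 genes were tested. Oat, which links ornithine to glutamate metabolism, was the most abundant of these at 104 and 96.1 CPM in KO libraries and 98.1 and 82.4 CPM in WT libraries. Gamt, which completes creatine synthesis, had 6.99 and 10.6 CPM in KO libraries and 10.7 and 16.8 CPM in WT libraries (-0.68 ± 0.26, SE, edgeR adjusted p = 0.284). Its estimate was -0.39 without KO replicate 1 and -0.32 without WT replicate 2, but -0.98 without KO replicate 2 and -0.96 without WT replicate 1. Slc7a1, an arginine transporter, had 3.61 and 3.75 CPM in KO libraries and 6.54 and 4.76 CPM in WT libraries (-0.61 ± 0.24, SE, edgeR adjusted p = 0.286), and the estimate was -0.37 without WT replicate 1. Arg1 and Arg2, the arginases that make ornithine, had at most 2 counts in any library, under the floor of 3 counts.

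Of 14 genes of S-adenosylmethionine supply and methionine salvage, 12 were tested. Mat2a, the enzyme that makes S-adenosylmethionine outside the liver, had 91.2 and 79.6 CPM in KO libraries and 94.95 and 79.9 CPM in WT libraries (-0.03 ± 0.14, SE). Mtap, which clears the by-product of spermidine and spermine synthesis, had 8.94 and 7.42 CPM in KO libraries and 9.86 and 9.52 CPM in WT libraries (-0.23 ± 0.18, SE). The smallest p in this list belonged to Ahcyl2, a relative of S-adenosylhomocysteine hydrolase, with 20.4 and 21.5 CPM in KO libraries and 12.6 and 16.9 CPM in WT libraries (0.50 ± 0.17, SE, edgeR adjusted p = 0.197), and the estimate was 0.31 without WT replicate 1.

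Spermidine is also used to make hypusine, a modified lysine of the translation factor Eif5a. Eif5a had 106 and 116 CPM in KO libraries and 109 and 113 CPM in WT libraries, and its log2 fold change was 0.00 ± 0.12 (SE). Dohh, the hydroxylase that finishes hypusine, had 31 and 16 counts in KO libraries and 35 and 42 counts in WT libraries. These stood for 1.47 and 1.36 CPM in KO and 3.32 and 3.28 CPM in WT, without overlap (-1.20 ± 0.31, SE, edgeR adjusted p = 0.0877). Dohh was called only when no filter on low counts was used (edgeR adjusted p = 0.0474), of the alternatives run. Dhps, which catalyses the step before, stood at -0.14 ± 0.22.

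Of 12 genes of polyamine transport 8 were tested. Slc22a3, an organic cation transporter that can carry polyamines, had 74 and 37 counts in KO libraries and 13 and 18 counts in WT libraries. Its level was 3.52 and 3.16 CPM in KO and 1.23 and 1.41 CPM in WT (1.34 ± 0.32, SE, edgeR adjusted p = 0.0662), and it too was called only without the filter on low counts (edgeR adjusted p = 0.0226), of the alternatives run. The lysosomal polyamine exporter Atp13a2 had 12.3 and 15.8 CPM in KO libraries and 17.1 and 15.1 CPM in WT libraries, with overlap. Of 7 further enzymes and regulators 2 were tested, Azin2 and Sat2, and neither was called. Satl1 and Aoc1 had 0 counts in each library, which allows up to 0.143 and 0.256 CPM in KO libraries and 0.284 and 0.234 CPM in WT libraries (3 counts per library).

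Of 12 genes known to regulate polyamine genes 11 were tested, and 1 was called higher and 0 lower. Of all tested genes 1.61% were called higher and 0.413% lower. At an unadjusted p below 0.05 by edgeR the count was 3 in this list, where 14% of all tested genes passed. Cdkn1a, a cell cycle inhibitor known in mouse muscle to lower Smox, had 11.7 and 10.7 CPM in KO libraries and 5.69 and 5.70 CPM in WT libraries. It rose by a log2 fold change of 0.98 ± 0.18 (SE, edgeR adjusted p = 0.0222). The call was lost without KO replicate 1 (0.90), WT replicate 1 (0.98) or WT replicate 2 (0.98), with edgeR adjusted p from 0.0536 to 0.103, and by DESeq2 (0.97, DESeq2 adjusted p = 0.0700). The fat-cell markers were higher in the same KO libraries, and their part in this value was not tested. Myc, which activates Odc1, had 7.61 and 6.74 CPM in KO libraries and 4.93 and 4.99 CPM in WT libraries (0.54 ± 0.20, SE, edgeR adjusted p = 0.255). Mxi1, which competes with Myc for Max, had 16.4 and 15.3 CPM in KO libraries and 22.7 and 21.6 CPM in WT libraries (-0.48 ± 0.14, SE, edgeR adjusted p = 0.133).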

How the data were processed

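RNA of quadriceps was sequenced in 2 KO and 2 WT libraries. The authors deposited raw counts, whole reads per Ensembl gene, 1 file per library. The submitters' processing notes name GRCm38 (mm10), DESeq2, Trimmomatic and STAR, and the sources used here give neither versions nor strand handling. Symbols, positions and exon lengths came from GENCODE M21 (55480 of 55573 IDs matched). Genes were kept by filterByExpr of edgeR 4.0.16 (minimum count 10, minimum total 15), scaled by TMM (factors 0.9797 to 1.0485) and tested with the quasi-likelihood F test in R 4.3.3, robust and with the non-legacy dispersion (taken after both settings had been run, as it gave the earlier results of these data), genotype as the only term, Benjamini-Hochberg adjustment over 13076 genes and a threshold of 0.05. SE and intervals derive from the F statistic. The pipeline was tested on simulated counts with the same dispersion for every gene. That test does not cover gene-specific spread or an outlying library. DESeq2 1.42.0, other factors, no filter and leaving out libraries were alternatives. All 10 members were named; any gene of the polyamine lists could be named, and elsewhere the 3 with the smallest p and those called. Members and lists were chosen with earlier results of these data known. Floors of 3 counts cover counting error only. Values of some listed genes are not reported here.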

Additional observations from a re-analysis of the deposited data

How the results depend on the processing

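Over the alternatives run, the log2 fold change of members was recomputed 98 times. It kept its direction and side of the threshold in 86, lost its call in 2 (both Sms) and changed sign in 10. Leaving out 1 library at a time gave 0 to 1 called members, 39 to 90 genes called lower (90 without WT replicate 1) and 216 to 332 genes called in all. Across the same runs log2 fold changes ranged from -0.13 to 0.32 for Odc1, -0.22 to 0.61 for Amd1, -0.24 to 0.18 for Srm, -0.54 to 0.57 for Smox, -0.16 to 0.12 for Sat1 and -0.165 to 0.052 for Oaz1. Without a filter on low counts 476 genes were called, 355 higher and 121 lower, against 265, 211 and 54; more genes were tested. Same-numbered libraries shared little (correlation of their deviations 0.05 across 6289 genes), and the labels give no pairing. With the replicate block 346 genes were called and Sms kept its call (edgeR adjusted p = 0.0122); the log2 fold change of Smox was then 0.001. Sms was also called by DESeq2 (DESeq2 adjusted p = 0.00196), with median-of-ratios factors and without the filter. Chosen after seeing the data, the legacy dispersion setting of edgeR called Sms and 323 genes, and a fit of autosomal genes called 249. With 2 libraries a group the 95% interval covered 0 for 9 of the 10 members, and small differences were not detectable.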

Other observations

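Genes of denervation and wasting were checked because Smox is known to fall with them in mouse muscle. Of 9 genes 8 were tested, and edgeR called Cdkn1a alone, higher in KO (1.61% of all tested genes), while DESeq2 called none. At an unadjusted p below 0.05 by edgeR the count was 3, where 14% of all tested genes passed. Of the 8 tested, 2 had a positive and 6 a negative log2 fold change. Myog, a muscle transcription factor, had 7.37 and 6.65 CPM in KO libraries and 7.49 and 14.7 CPM in WT libraries (log2 fold change -0.67 ± 0.29, SE, edgeR adjusted p = 0.353). Gadd45a, a stress-response gene, had 12.6 and 13.6 CPM in KO libraries and 15.07 and 18.3 CPM in WT libraries (-0.35 ± 0.16, SE, edgeR adjusted p = 0.357).

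Of 11 immediate-early genes none was called by edgeR or DESeq2, with 0 at an unadjusted p below 0.05 (14% of all tested genes). KO replicate 1 stood apart for several of them, while some others were highest in WT replicate 1. Fos had 59.9 and 14.5 CPM in KO libraries and 7.87 and 6.16 CPM in WT libraries. Fosb had 10.3 and 1.54 CPM in KO libraries and 0.663 and 0.858 CPM in WT libraries. Odc1, itself known as an early-response gene, stood at 25.9 CPM in KO replicate 1, its lowest of the 4 libraries. It had 35.5 CPM in KO replicate 2 and 28.7 and 28.01 CPM in WT libraries. This rests on 1 library, and a link of Odc1 to the immediate-early genes was not tested.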
